A study of Homo sapiens with 10 samples.

Results

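The genes described are 51 that encode SR proteins, hnRNPs and core factors of the spliceosome. They were chosen by name, by a rule made with earlier results of these data known. The rule took every gene whose symbol begins with SRSF, HNRNP, SF3A, SF3B, U2AF, PRPF or SNRNP and that had a probe set of its own on the array, with HNRNPA1 and HNRNPA2B1 left out. They are 51 of 14232 genes named on the array: 9 SR proteins, 14 hnRNPs, 9 SF3A and SF3B subunits, 3 U2AF subunits, 10 PRPF factors and 6 SNRNP proteins. Another 10 symbols of these families, SRSF2, SRSF5, HNRNPK, HNRNPUL2, PRPF40B and SNRNP35 among them, share their probe sets with other genes and were not used here. Each of the 51 genes had 1 probe set.

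Their RNA was measured with Affymetrix exon arrays, summarised per gene, in SH-SY5Y, a human neuroblastoma line with noradrenergic properties. All cells were stably transfected and kept under G418. One group of 5 arrays carried wild-type SOD1 (samples 2, 8, 11, 14 and 17) and the other 5 carried SOD1(G93A), a mutant of copper-zinc superoxide dismutase found in familial amyotrophic lateral sclerosis (samples 3, 9, 12, 15 and 18). The labels do not say whether a line was 1 clone or whether the arrays came from separate cultures, so the SOD1 construct cannot be told apart from other differences between the lines, and the p-values measure only the spread between these arrays, which may be technical.

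Pre-mRNA splicing is carried out by the spliceosome, which is built anew on each intron from small nuclear ribonucleoproteins (snRNPs) and helper proteins. U1 snRNP binds the 5′ splice site, U2AF reads the polypyrimidine tract and AG of the 3′ splice site, and U2 snRNP, held in place by the SF3A and SF3B complexes, pairs with the branch point. The tri-snRNP of U4, U6 and U5, which holds several PRPF proteins, then joins, and the assembly is remodelled for catalysis. SR proteins and hnRNPs bind exons and introns and tune which sites are used, SR proteins mostly as activators and many hnRNPs as repressors, and neurons depend on this tuning for many of their alternative exons.

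Values are log2 intensities after RMA, so a difference of 1 is a 2-fold change. All differences are SOD1(G93A) minus wild-type SOD1. Array medians lay between 6.26 and 6.34, and arrays correlated at 0.990 to 0.994 within groups and 0.986 to 0.990 between them. Of 7 noradrenergic neuroblastoma markers measured, 6 were above the array median on all 10 arrays, the exception being TH (mean 5.59 and 5.67). Of 16 markers of other cell types, 7, among them PTPRC, PECAM1, EPCAM and ALB, were below the lower quartile on every array and 1, PDGFRB, was above the median. S100B, a glial marker, was higher in the SOD1(G93A) arrays by 0.73 (limma adjusted p = 0.00239). Its level was low, with means of 3.69 in the wild-type and 4.42 in the SOD1(G93A) arrays, where the lower quartiles of the arrays were 3.84 to 3.89. Of the noradrenergic markers, CHGA was higher by 1.06 (limma adjusted p = 0.000216) and GATA3 lower, at -0.38 (limma adjusted p = 0.00732). Whether these have any part in the values below was not tested. Of the 51 splicing genes, 50 were brighter on average than the median probe set, SRSF10 being the exception, and none was below the lower quartile on any array.

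One array stood apart for these genes. On SOD1(G93A) sample 18, 43 of the 51 genes lay above their group mean, by a median of 0.11, while the median deviation of all named genes there was 0.02. It was the array farthest from its group mean for 20 of the 51 genes. The matching counts over all named genes were not taken. Sample 18 also had the lowest limma array weight over all probe sets, 0.699. Next was SOD1(G93A) sample 12 at 0.728, and the highest was 1.36 on SOD1(G93A) sample 15. Whether the deviation of sample 18 is particular to these genes was not tested. On that array the deviation was largest in SRSF3 (0.46), SRSF10 (0.35) and SRSF12 (0.35), and lowest in U2AF1L4 (-0.22). On SOD1(G93A) sample 9 only 11 genes lay above the group mean (median -0.09), and on wild-type sample 8 only 12 did (median -0.07). After removal of the group means, the mean correlation of the 1275 pairs among the 51 genes was 0.24, against 0.04 for pairs of all named genes. Without sample 18 it was 0.18 against 0.04. These correlations rest on the same 10 arrays, and neither RNA quality nor labelling of single arrays was examined. Calls that sample 18 changes, and values of the genes described in full that it moves by over 1.5 times, are given with and without it.

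**Figure D1:**
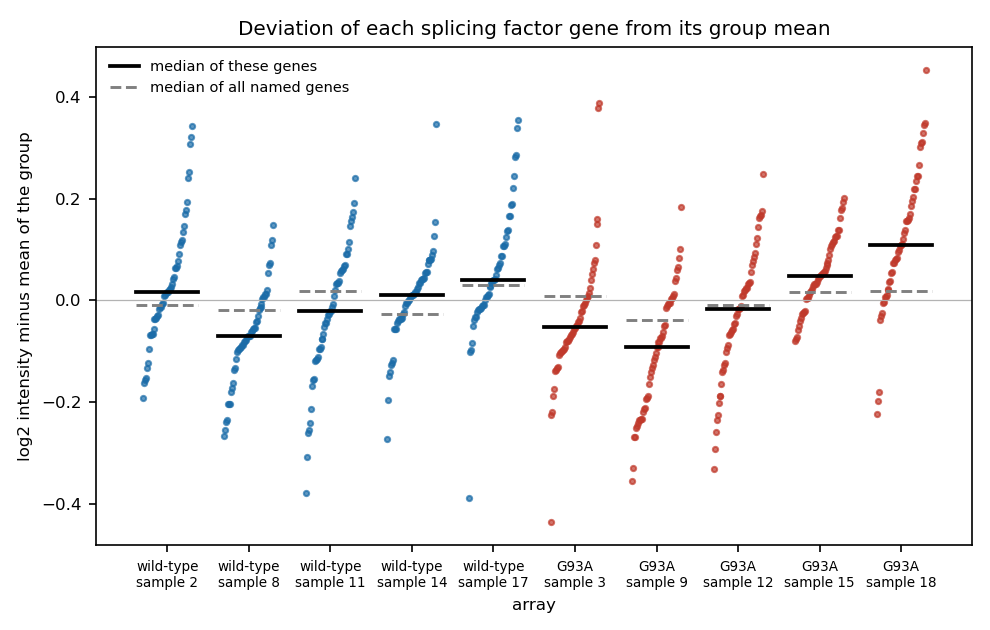
Deviation of each of the 51 genes (points) from the mean of its own group on each array, in log2 units; black lines are their median and dashed lines that of all named genes. The median of the 51 genes was 0.11 on SOD1(G93A) sample 18 and -0.09 on SOD1(G93A) sample 9, farther from 0 than on the other arrays.

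Splicing factor RNA was close to level between the lines. Of the 51 genes, 1 fell and 0 rose at an adjusted p of 0.05 by limma, where 4.23% of all 22011 probe sets fell, 3.24% rose and 7.46% changed in either direction. The gene that fell was SF3A3, a subunit of the SF3A complex of U2 snRNP. At an unadjusted p under 0.05, 7 genes were lower and 0 higher, or 13.7% of the 51, against 9.62% of all probe sets lower and 8.93% higher. At that p 1650 of the 14232 named genes were lower and 1437 higher. Of the 11005 probe sets brighter than the median, 1344 were lower and 1205 higher. By the adjusted p, 9.6% of named genes were called by limma in either direction. The groups did not overlap in 2 genes, SF3A3 and SF3B6, both lower (3.92% of the 51, where 8.88% of all probe sets did not overlap in either direction and 1101 of these 1954 were lower). Among named genes 11.4% did not overlap. Differences were below 0 in 30 genes and above 0 in 21, with a median of -0.03, where the median over all probe sets was 0.001. Leaving out single arrays moved the median of the 51 genes between -0.05 (without SOD1(G93A) sample 15 or 18) and 0.002 (without SOD1(G93A) sample 9). Without sample 18, 3 genes fell (HNRNPLL, SNRNP48 and SRSF7) and 0 rose by limma, where 3.83% of all probe sets fell, and SF3A3 was no longer called (adjusted p = 0.0519). Sample 18 was singled out because most of these genes read high on it, so omitting it lowers most of their SOD1(G93A) means by construction. Without SOD1(G93A) sample 3, 9 or 12, or without wild-type sample 11 or 17, 0 genes fell by limma.

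The 51 differences ran from -0.37 in SF3B6 to 0.13 in SNRNP200, and none reached 0.5 in size, as 4.57% of all probe sets did. The 95% interval of the difference lay wholly within 1.5-fold in either direction in 49 genes, or 96.1%, against 83.3% of all probe sets and 90.6% of named genes. The exceptions were SF3B6 (-0.61 to -0.14) and SRSF10 (-0.62 to 0.14), and all 51 intervals lay within 2-fold. The half-width of these intervals had a median of 0.19, and the pooled within-group SD ran from 0.04 in HNRNPUL1 to 0.31 in SRSF10.

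**Figure D2:**
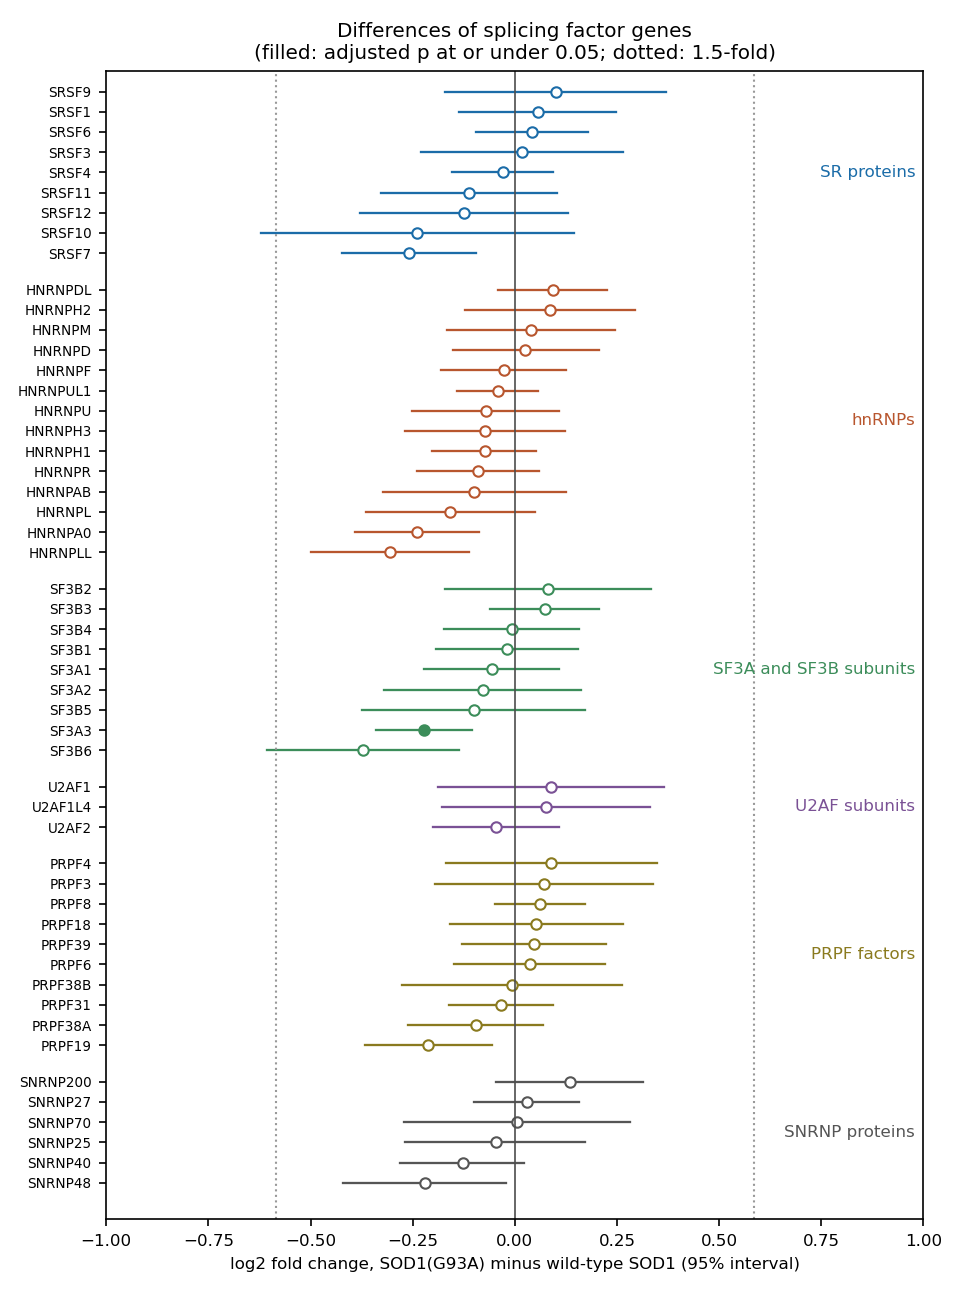
Log2 fold change (SOD1(G93A) minus wild-type SOD1) of each of the 51 genes with its 95% interval by limma, grouped by class; the filled point passed an adjusted p of 0.05 and the dotted lines mark 1.5-fold. Only SF3A3 is filled, and only the intervals of SF3B6 and SRSF10 cross a dotted line.

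The U2 snRNP genes held the only call and the largest difference. SF3A3, which helps to dock SF3A onto the U2 particle, read 10.23, 10.01, 10.15, 10.06 and 10.12 in wild-type samples 2, 8, 11, 14 and 17, and 9.88, 9.89, 9.86, 9.93 and 9.90 in SOD1(G93A) samples 3, 9, 12, 15 and 18. Every SOD1(G93A) array was below every wild-type array, and the SOD1(G93A) values were close together. The means were 10.11 ± 0.08 and 9.89 ± 0.03 (SD, n = 5 each), a log2 fold change of -0.22 (SE 0.05, interval -0.34 to -0.11, limma adjusted p = 0.028), or 85.7% of the wild-type level. The call was lost without any 1 of 7 arrays, samples 2, 11, 17, 3, 9, 12 and 18, with adjusted p up to 0.0683, and was lost without samples 17 and 18 together (adjusted p = 0.1). In these omissions the difference stayed between -0.25 and -0.19. The call was also lost with a block of consecutive sample numbers, added after the data were seen (limma adjusted p = 0.105).

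SF3B6, also called p14, touches the branch point adenosine. Its values were 10.12, 10.25, 9.98, 9.94 and 10.38 in the wild-type arrays and 9.87, 9.81, 9.47, 9.77 and 9.90 in the SOD1(G93A) arrays, in the same sample order. The groups did not overlap, though the lowest wild-type array, sample 14, was only just above the highest SOD1(G93A) array, sample 18. The log2 fold change was -0.37 (SE 0.11), the largest in size of the 51, and did not pass the threshold (limma adjusted p = 0.0649). It passed with the block of consecutive sample numbers (limma adjusted p = 0.0365). Its arrays spread more than those of SF3A3, with a within-group SD of 0.18 against 0.06.

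The other 7 subunits were near level. SF3B5, a small SF3B subunit, read 9.83, 9.63, 9.94, 9.42 and 9.66 with wild-type SOD1 and 9.98, 9.49, 9.55, 9.54 and 9.41 with SOD1(G93A). The ranges overlapped almost wholly, and the log2 fold change was -0.10 (SE 0.12, adjusted p = 0.757). Single arrays moved it by over 1.5 times: it was -0.20 without SOD1(G93A) sample 3, -0.17 without wild-type sample 14, -0.07 without wild-type sample 2, -0.06 without SOD1(G93A) sample 18 and -0.04 without wild-type sample 11. SF3B1, the large scaffold that cradles the branch helix and is mutated in several blood cancers, differed by -0.02 (interval -0.19 to 0.15). Its partners SF3B2, SF3B3 and SF3B4 differed by 0.08, 0.07 and -0.01, and SF3A1 and SF3A2 by -0.06 and -0.08. The median over the 9 subunits was -0.06, with 7 below 0.

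The promoter windows of SF3A3, the one gene called, and SF3B6, the one with the largest difference, are shown for context; the array does not read them. Each is the stretch of 250 bases before the RefSeq start on GRCh38.p14, 5′ to 3′ on the gene's strand. Capitals mark CGGAAG, the core of many ETS factor motifs, or its reverse complement CTTCCG. SF3A3 lies on the minus strand at chr1:37990023-37990272 and SF3B6 on the minus strand at chr2:24076327-24076576.
SF3A3: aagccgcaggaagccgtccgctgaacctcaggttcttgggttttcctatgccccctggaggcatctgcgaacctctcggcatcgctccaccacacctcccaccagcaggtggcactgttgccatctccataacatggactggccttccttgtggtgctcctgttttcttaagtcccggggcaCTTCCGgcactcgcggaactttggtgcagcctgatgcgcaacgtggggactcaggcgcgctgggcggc
SF3B6: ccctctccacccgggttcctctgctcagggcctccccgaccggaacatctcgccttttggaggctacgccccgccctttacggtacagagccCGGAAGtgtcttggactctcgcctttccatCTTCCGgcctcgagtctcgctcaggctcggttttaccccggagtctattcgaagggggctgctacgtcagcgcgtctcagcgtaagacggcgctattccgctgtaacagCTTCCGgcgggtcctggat
SF3A3 holds 1 match, whose first base is at -68 from the start, and SF3B6 holds 3, at -158, -128 and -19. On either strand CGGAAG was present in 23 of the 48 windows that could be matched to the 51 genes (47.9%), in 22.1% of the windows of all named genes and in 16.8% of all windows in the table. The windows of the 48 genes held a median of 24 CpG dinucleotides, against 18 in those of named genes. The motif was chosen with the windows in view, so these shares are descriptions. A match is a run of letters and does not show binding.

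Of the 3 genes for U2AF, the sensor of the 3′ splice site, none was called, against 7.46% of all probe sets. U2AF1, the small subunit that reads the AG, gave 7.38, 7.52, 7.13, 7.66 and 7.85 with wild-type SOD1 and 7.75, 7.64, 7.39, 7.56 and 7.65 with SOD1(G93A). The wild-type arrays spread more widely than the SOD1(G93A) arrays and spanned their whole range. The log2 fold change was 0.09 (SE 0.12, adjusted p = 0.801), and it was -0.01 without wild-type sample 11, 0.17 without wild-type sample 17 and between 0.05 and 0.14 without any other single array. U2AF1L4, a shorter relative of U2AF1, gave 7.26, 7.21, 7.13, 7.17 and 7.37 against 7.68, 7.29, 7.05, 7.42 and 7.08. Its SOD1(G93A) arrays lay on both sides of the wild-type ones, so that the difference of 0.08 (SE 0.12, adjusted p = 0.819) was -0.02 without SOD1(G93A) sample 3, 0.14 without SOD1(G93A) sample 12 and 0.13 without sample 18. U2AF2, the large subunit that binds the polypyrimidine tract, differed by -0.05 (interval -0.20 to 0.11).

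Among SR proteins 0 of 9 passed the adjusted threshold by limma, where 7.46% of all probe sets passed in either direction. At an unadjusted p under 0.05, 1 was lower and 0 higher, where 9.62% of all probe sets were lower and 8.93% higher. The lower gene was SRSF7, an SR protein with a zinc knuckle that also helps mRNA export. It read 10.16, 10.39, 10.28, 10.37 and 10.38 with wild-type SOD1 and 9.92, 10.07, 9.93, 10.15 and 10.21 with SOD1(G93A). Only wild-type sample 2 and SOD1(G93A) sample 18 kept the groups from separating. The log2 fold change was -0.26 (SE 0.07, adjusted p = 0.0662), and it was called without sample 18 (-0.30, adjusted p = 0.0409) or without wild-type sample 2 (-0.30, adjusted p = 0.0473).

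SRSF10, which represses splicing when dephosphorylated in heat shock and mitosis, gave 5.80, 5.74, 6.01, 6.18 and 5.44 against 5.16, 5.36, 5.84, 5.66 and 5.94. The groups overlapped over most of their range, and the difference of -0.24 had the widest interval of the 51 genes (SE 0.17, adjusted p = 0.54). It was -0.13 without SOD1(G93A) sample 3, -0.15 without wild-type sample 14 and -0.42 without samples 17 and 18 together. SRSF12, its close relative, and SRSF11, an SR-like protein, differed by -0.12 and -0.11.

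SRSF1, the first to be described and a factor for both constitutive and enhancer-dependent splicing, differed by 0.06 (interval -0.14 to 0.25), and SRSF3, the smallest, by 0.02 (-0.23 to 0.27). On sample 18 SRSF3 read 10.10, with the other SOD1(G93A) arrays between 9.45 and 9.62. SRSF4, SRSF6 and SRSF9 differed by -0.03, 0.04 and 0.10. The median over the 9 SR genes was -0.03, and without sample 18 it was -0.10. Their mean level was 9.45 ± 0.05 in the wild-type and 9.39 ± 0.15 in the SOD1(G93A) arrays (SD, n = 5 each), or 9.33 ± 0.10 without sample 18.

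None of the 14 hnRNPs was called. Their differences were below 0 in 10 and above 0 in 4, with a median of -0.07. The adjusted threshold was passed by 0 of them by limma and by 7.46% of all probe sets. Over all probe sets 10972 of 22011 were below 0. At an unadjusted p under 0.05, 2 hnRNPs were lower and 0 higher (14.3%), against 9.62% of all probe sets lower and 8.93% higher. The 14 genes are not independent: after removal of the group means their pairs correlated at 0.37 on average. HNRNPLL, a relative of hnRNP L known for exon skipping in the CD45 transcript of T cells, read 7.86, 7.80, 7.90, 7.89 and 7.74 with wild-type SOD1 and 7.49, 7.39, 7.37, 7.58 and 7.83 with SOD1(G93A). SOD1(G93A) sample 18 lay among the wild-type arrays and the other SOD1(G93A) arrays lay below all of them. The log2 fold change was -0.31 (SE 0.09, adjusted p = 0.0665) over all arrays and -0.38 (adjusted p = 0.00573) without sample 18. Without SOD1(G93A) sample 9 it was -0.27 (limma adjusted p = 0.148).

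HNRNPA0, an hnRNP of the A/B family that binds AU-rich elements, read 10.57, 10.67, 10.88, 10.79 and 10.70 against 10.41, 10.43, 10.54, 10.43 and 10.59. Only wild-type sample 2 and SOD1(G93A) sample 18 crossed, and the log2 fold change was -0.24 (SE 0.07, adjusted p = 0.0671), which was called without wild-type sample 2 (-0.28, adjusted p = 0.039). HNRNPL, which binds CA repeats, differed by -0.16 (interval -0.37 to 0.05), with 11.05 on SOD1(G93A) sample 9 and 11.40 to 11.66 on the other arrays.

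The G-run binding proteins HNRNPH1, HNRNPH2, HNRNPH3 and HNRNPF differed by -0.07, 0.09, -0.07 and -0.03. HNRNPD, also called AUF1, and its relative HNRNPDL differed by 0.03 and 0.09. The scaffold protein HNRNPU and its relative HNRNPUL1 differed by -0.07 and -0.04, the latter with the smallest spread of the 51 genes (interval -0.14 to 0.06). HNRNPAB, HNRNPM and HNRNPR differed by -0.10, 0.04 and -0.09. Close relatives such as HNRNPH1 and HNRNPH2 may share probes, which was not examined. The mean level of the 14 hnRNPs was 10.40 ± 0.05 and 10.33 ± 0.10 (SD, n = 5 each), or 10.29 ± 0.07 in the SOD1(G93A) arrays without sample 18. The wild-type and SOD1(G93A) arrays overlapped in this mean, at 10.33 to 10.43 and 10.22 to 10.48. Without sample 18, 12 of the 14 differences were below 0, with a median of -0.10.

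**Figure D3:**
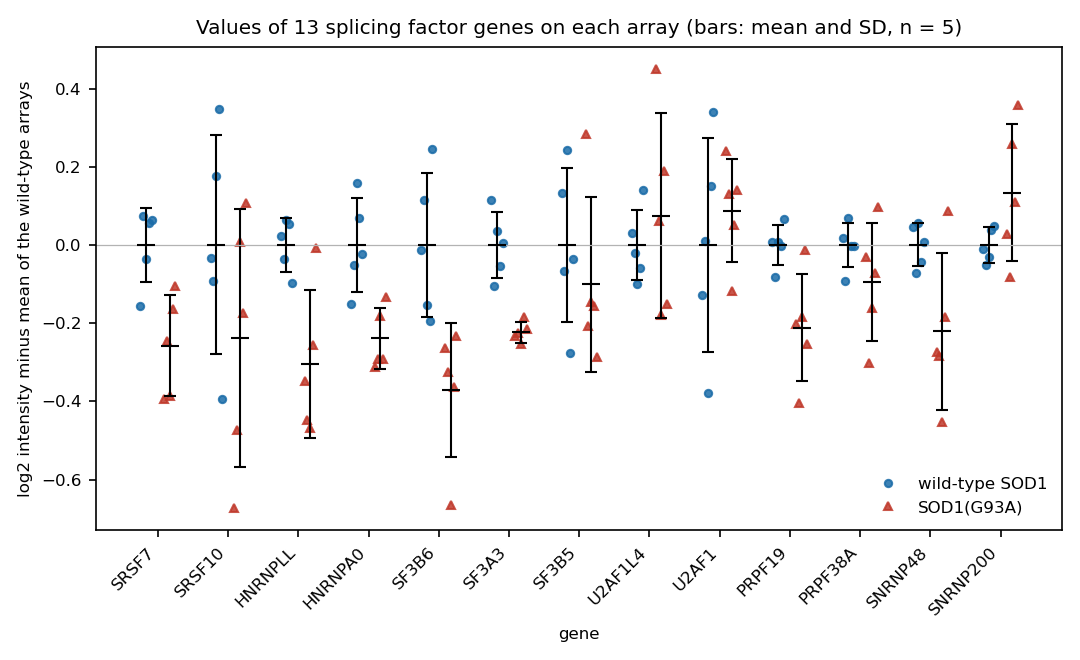
Values of 13 genes on each array as log2 intensity minus the mean of the wild-type arrays, in sample number order within each group; bars are the mean and SD of 5 arrays. In SF3A3 and SF3B6 all SOD1(G93A) arrays lie below all wild-type arrays, and in SRSF7, HNRNPLL, HNRNPA0, PRPF19 and SNRNP48 4 of the 5 SOD1(G93A) arrays do.

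The PRPF genes, which mostly act in and around the tri-snRNP, had 0 of 10 past the threshold by limma, against 7.46% of all probe sets. At an unadjusted p under 0.05, 1 was lower and 0 higher, where 9.62% of all probe sets were lower and 8.93% higher. PRPF19, a ubiquitin ligase at the heart of the complex that activates the spliceosome, read 9.95, 9.86, 9.95, 9.94 and 10.01 with wild-type SOD1 and 9.74, 9.54, 9.76, 9.93 and 9.69 with SOD1(G93A). SOD1(G93A) sample 15 lay among the wild-type arrays and the others below them. The log2 fold change was -0.21 (SE 0.07, adjusted p = 0.112), and -0.26 without sample 15 (adjusted p = 0.0405). PRPF38A, which enters before activation, gave 9.48, 9.37, 9.53, 9.46 and 9.46 against 9.43, 9.16, 9.30, 9.39 and 9.56, overlapping groups with a difference of -0.10 (SE 0.07, adjusted p = 0.58). The difference was -0.04 without SOD1(G93A) sample 9 and -0.14 without sample 18.

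PRPF8, the protein that encloses the catalytic RNA, differed by 0.06 (interval -0.05 to 0.17). Together with PRPF3, PRPF4, PRPF6 and PRPF31 (0.07, 0.09, 0.04 and -0.03) it belongs to the tri-snRNP genes mutated in inherited retinitis pigmentosa. PRPF18, which acts at exon ligation, PRPF39, a U1-associated protein, and PRPF38B differed by 0.05, 0.05 and -0.01. The class median was 0.04, with 6 differences above 0. It was 0.009 without sample 18 and 0.002 without wild-type sample 8.

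The SNRNP genes showed 0 of 6 past the threshold by limma, against 7.46% of all probe sets. At an unadjusted p under 0.05, 1 was lower and 0 higher, where 9.62% of all probe sets were lower and 8.93% higher. SNRNP48, a protein of the U11/U12 particle that recognises minor introns, read 7.48, 7.36, 7.49, 7.39 and 7.44 against 7.16, 7.15, 6.98, 7.25 and 7.52. Sample 18 was above every wild-type array, while the other SOD1(G93A) arrays were below all of them. The log2 fold change was -0.22 (SE 0.09, adjusted p = 0.212), and -0.30 without sample 18 (adjusted p = 0.0232). Without SOD1(G93A) sample 12 it was -0.16 (limma adjusted p = 0.327). SNRNP25, another U11/U12 protein, differed by -0.05 (interval -0.27 to 0.17).

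SNRNP200, the helicase that unwinds U4 from U6, had the highest difference of the 51 genes over all 10 arrays. It read 10.29, 10.25, 10.27, 10.34 and 10.35 with wild-type SOD1 and 10.33, 10.22, 10.56, 10.41 and 10.66 with SOD1(G93A). The SOD1(G93A) arrays spread both below and above the narrow wild-type range, and the difference of 0.13 (SE 0.08) was not past the threshold (adjusted p = 0.44). Without sample 18 it was 0.08, below the 0.13 of U2AF1L4. SNRNP70, the U1 protein that binds the U1 RNA, differed by 0.01 (interval -0.27 to 0.28), the U5 protein SNRNP40 by -0.13 (-0.28 to 0.02) and the tri-snRNP protein SNRNP27 by 0.03.

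The 3 genes with the lowest differences, SF3B6, HNRNPLL and SRSF7, share a chromosome region, which was noticed after their values were seen. They lie on chromosome 2 between SH3YL1 and ACYP2, a stretch in which neighbouring genes were already known from these data to be lower. The 198 other named genes of that stretch had a median log2 fold change of -0.38, and 101 of them fell by limma while 2 rose. HNRNPLL and SRSF7 have only GALM between them among the genes measured (-0.24, adjusted p = 0.108), and the next gene after SRSF7 is GEMIN6.

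Among the 20 measured genes nearest to each of these 3 in the gene order, 10 on each side, all 20 were below 0, with medians of -0.46 around SF3B6, -0.39 around HNRNPLL and -0.35 around SRSF7; the last 2 sets overlap. Of the neighbour sets of all named genes, 0.131%, 0.553% and 0.867% had a median as low. These shares are descriptions and not p-values, since sets of nearby genes overlap and the stretch was already known to be lower. For the other 48 splicing genes the neighbour medians lay between -0.06 and 0.09. Around SF3A3, on chromosome 1, the median was -0.06 with 2 of 20 called lower. The other splicing genes on chromosome 2, SNRNP27, SNRNP200 and SF3B1, lie outside the stretch and differed by 0.03, 0.13 and -0.02. With the 3 genes set aside, 4 of the remaining 48 (8.33%) were lower and 0 higher at an unadjusted p under 0.05. Over all probe sets 9.62% were lower and 8.93% higher at that p. The median difference of the 48 genes was -0.02. The 3 were picked as the genes with the lowest differences, so setting them aside reduces the count and cannot lower the median, by construction. Whether the region has a part in the count was not tested by this. Gene dosage was not measured here, so its part in these values was not tested.

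**Figure D4:**
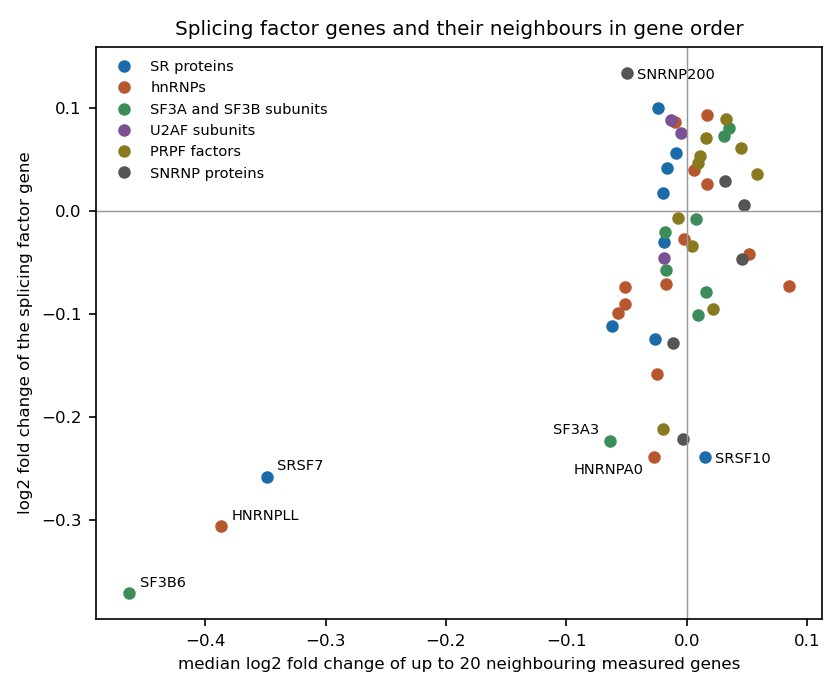
Log2 fold change of each of the 51 genes against the median log2 fold change of up to 20 neighbouring measured genes (up to 10 on each side), coloured by class. SF3B6, HNRNPLL and SRSF7 stand apart at neighbour medians of -0.46 to -0.35, and the other 48 genes lie between -0.06 and 0.09.

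Genes of splicing outside these families were also mostly level. Of 112 measured on 7 lists, 3 fell and 0 rose by limma, with 11 lower and 3 higher at an unadjusted p under 0.05 and a median of -0.005. The 3 calls are 2.68% of the 112, where 4.23% of all probe sets fell and 9.62% were lower at an unadjusted p under 0.05. The lists were drawn up with earlier results of these data known. The 3 were SNRPB2, a protein of U2 snRNP, LSM11, a component of the U7 snRNP that matures histone mRNA, and GEMIN6, part of the SMN complex that loads Sm rings. SNRPB2 averaged 9.37 ± 0.06 in the wild-type and 8.84 ± 0.11 in the SOD1(G93A) arrays (SD over 5 arrays), a log2 difference of -0.54 (SE 0.06, limma adjusted p = 0.000314). LSM11 fell by 0.41 (SE 0.07, limma adjusted p = 0.00548) and GEMIN6 by 0.43 (SE 0.07, limma adjusted p = 0.00485), the latter within the chromosome 2 stretch beside SRSF7. In all 3, which were picked by their adjusted p, the groups did not overlap. Of the 112 genes, 6 (5.36%) did not overlap, against 8.88% of all probe sets and 11.4% of named genes.

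By list, 2 of 18 Sm and LSM proteins (11.1%) and 1 of 14 snRNP assembly genes (7.14%) fell, where 4.23% of all probe sets did. None of the others was called by limma: the 9 genes measured of the list of spliceosomal helicases and the GTPase EFTUD2 (1 higher and 0 lower at an unadjusted p under 0.05), 16 genes of the Prp19 complex and step factors (0 and 3), 20 SR-related proteins and SR kinases (0 and 0), 4 exon junction genes (0 and 0) and 31 other RNA-binding regulators (1 and 3). At that unadjusted p, 8.93% of all probe sets were higher and 9.62% lower. The SR kinase and SR-related list, which holds the enzymes that phosphorylate SR proteins, ran from -0.18 to 0.05.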

How the data were processed

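RNA from 10 SH-SY5Y samples was measured on 1-colour Affymetrix exon arrays, 1 array each. The authors deposited log2 intensities summarised per gene with RMA, per the submitters' processing notes, in oneChannelGUI 1.6.5, per the labels. The sources used here give neither build nor filters. RMA forces the arrays to 1 distribution and hides a shift common to every gene, and values per gene do not show exon use.

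The platform annotation paired 14432 of the 22011 probe sets with a single gene symbol, 2408 with several and 5171 with none. All 51 genes matched the RefSeq table of GRCh38.p14 with the same symbol. That table gave only gene order, and promoter windows came from RefSeq. The 51 genes and the other lists were chosen with earlier results of these data known.

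Groups were compared 2-sided, 5 against 5 arrays, by lmFit and eBayes of limma 3.58.1 under R 4.3.3. Benjamini-Hochberg adjustment covered the 22011 probe sets, and a call needs an adjusted p of 0.05 or less; the script was tested on simulated data. With the labels' 2-fold threshold added, 192 of 1643 calls remained. Genes given with all values are those called and, per class, the 2 uncalled ones with the largest differences. Alternatives were other variance models, array weights, renormalization, a filter on dim probe sets, averaging of probe sets per gene, omission of arrays and, added after the data were seen, a block of consecutive sample numbers. The number of arrays limits the precision.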

Additional observations from a re-analysis of the deposited data

Results flagged for a closer look

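SF3B5 on SOD1(G93A) sample 3 stood apart from the rest of its group. It read 9.98 there, and the other 4 arrays lay between 9.41 and 9.55, so that the gap to the nearest array was 76.5% of the group's range, above the limit of 71% for 5 arrays. Without that array the log2 fold change of SF3B5 was -0.198 in place of -0.101. It was the only one of 40 groups of 5 values tested (13 genes and 7 class means in both lines). About 1 in 20 such groups passes this limit by chance.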

How the results depend on the processing

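The number of the 51 genes called lower was 1. It became 3 with an intensity trend in the variance model, 3 with array weights, 4 with arrays centred on their medians and 2 with repeated quantile normalization. It was 5 among probe sets brighter than the median and 5 with averaged probe sets per gene. Both of these settings adjust over fewer tests. Each of the 51 genes had 1 probe set, so averaging left its difference unchanged. With 1 array left out the number called lower ranged from 0 to 3. The number called higher was 0 under all 19 alternatives other than the block given last. Over these, 7 genes were called lower at least once: SF3A3 in 11, HNRNPLL in 7, SRSF7 in 6, HNRNPA0 in 5, SF3B6 in 3, and PRPF19 and SNRNP48 in 1 each; the other 44 never were. U2AF1 was -0.006 without wild-type sample 11 and U2AF1L4 -0.019 without SOD1(G93A) sample 3, the only sign changes among the 13 genes given with all values. With 1 array left out, U2AF1 reached 0.173 (without wild-type sample 17) and U2AF1L4 0.14 (without SOD1(G93A) sample 12). Class medians moved by less than the pooled SD of the class mean under all 19 alternatives other than the block given last, but some near 0 changed sign: that of U2AF ran from -0.019 to 0.139, of the SNRNP genes from -0.073 to 0.031 and of the SR genes from -0.096 to 0.002 with 1 array left out. That of the PRPF genes ran from 0.002 to 0.056, of the SF3A and SF3B genes from -0.086 to -0.01, of the hnRNPs from -0.097 to -0.038 and of all 51 genes from -0.05 to 0.002. The number of intervals within 1.5-fold was 49 or 50. Calls among the other splicing genes were 5 instead of 3 with repeated quantile normalization. The median of the other genes of the chromosome 2 stretch was -0.451 among probe sets brighter than the median, a change in which genes enter. Where a setting moved a count and nothing more is said, the cause was not tested. The sample numbers run in consecutive wild-type and SOD1(G93A) numbers (2 and 3 up to 17 and 18), which the labels do not call pairs. The deviations of such samples from their group means correlated at -0.03 to 0.14 over all probe sets. Only samples 8 and 9 each correlated best with the other. The median deviation of the 51 genes was -0.07 and -0.091 on samples 8 and 9, and 0.041 and 0.11 on 17 and 18. On 11 and 12 it was -0.021 and -0.017, on 14 and 15 0.011 and 0.048, and on 2 and 3 0.016 and -0.053. The main fit took no pairs, and whether the numbers mark pairs was not tested. A replicate block on these numbers, added after the data were seen, left 1 of the 51 genes lower and 0 higher with 1213 calls in all, but the gene called was SF3B6 (adjusted p = 0.0365) and not SF3A3 (adjusted p = 0.105).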

Other observations

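Other short motifs in the 250-base windows before the starts of the 48 matched genes, on either strand, were nearer in percentage points to the share among named genes than CGGAAG was. The GC box GGGCGG was present in 64.6% against 58.4%, CCAAT in 41.7% against 34.7%, the E box CACGTG in 14.6% against 8.0% and TATAAA in 8.3% against 8.2%. These are counts of letters, chosen with the windows in view.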
